A study of Mus musculus with 8 samples.

Results

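The let-7 and miR-98 guide strands are the 5p arms of the let-7 microRNA family, the arms that are usually loaded into the silencing complex. They were taken as the array entries named mmu-let-7a-5p, mmu-let-7b-5p, mmu-let-7c-5p, mmu-let-7d-5p, mmu-let-7e-5p, mmu-let-7f-5p, mmu-let-7g-5p, mmu-let-7i-5p and mmu-miR-98-5p (the prefix marks mouse and is left out below), which gave 9 of the 1881 mouse miRNAs on the array. They were followed in 8 mouse kidney samples, 4 with ischemia-reperfusion injury (IRI, numbered 1, 2, 3 and 18) and 4 from the sham model (numbered 1, 2, 3 and 6), each on 1 single-colour array. The series' design text gives male C57BL/6 mice aged 9 weeks for the IRI model and names no other strain, sex or age for the sham model. In the IRI model the right kidney was removed, and the left kidney was clamped for 25 or 45 min and collected 12 or 24 h later. Clamp and collection times of single IRI samples are not in the labels. Sham surgery was limited to a midline incision, so nephrectomy and clamping cannot be told apart. Nothing in the labels ties a sample to an animal of its own, and the spread behind every p-value is that between these 8 samples, which may be technical.

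The let-7 family was first found in the worm Caenorhabditis elegans as a regulator of developmental timing. In mammals its members accumulate as cells differentiate, and their maturation in stem and embryonic cells is blocked by the RNA-binding proteins LIN28A and LIN28B. Guide strands of the family repress mRNAs of growth and cell-cycle genes, among them Hmga2, Myc, the Ras genes and Igf2bp mRNAs. Members share a seed, the stretch at positions 2 to 8 that pairs with target mRNAs, and are made from several genes on different chromosomes.

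The mature sequences are shown because the members differ by so few bases that array probes have to tell them apart. Sequences are from RefSeq (GRCm38.p6), written 5′ to 3′, with the seed in capitals.
let-7a-5p: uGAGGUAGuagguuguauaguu
let-7b-5p: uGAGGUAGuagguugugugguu
let-7c-5p: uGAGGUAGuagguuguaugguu
let-7d-5p: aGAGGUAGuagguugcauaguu
let-7e-5p: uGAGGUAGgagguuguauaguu
let-7f-5p: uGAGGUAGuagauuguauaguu
let-7g-5p: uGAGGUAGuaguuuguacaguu
let-7i-5p: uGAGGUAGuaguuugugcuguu
miR-98-5p: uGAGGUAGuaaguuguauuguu

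All 9 were 22 bases long and carried the same seed. Counted from 1 at the 5′ end, with the let-7a base first, let-7c differed from let-7a only at A19G, let-7e only at U9G and let-7f only at G12A. let-7b differed at A17G and A19G, let-7d at U1A and U16C, let-7g at G12U and U18C, and miR-98 at G11A and A19U. let-7i was the most distant from let-7a, with G12U, A17G, U18C and A19U.

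The genes lie in 8 places in GRCm38.p6. let-7d-5p (chr13:48536078-48536099), let-7f-5p (Mirlet7f-1, chr13:48537889-48537910) and let-7a-5p (Mirlet7a-1, chr13:48538239-48538260) lie side by side on the minus strand, with no other annotated gene spanning them. let-7c-5p of Mirlet7c-2 (chr15:85706616-85706637) and let-7b-5p (chr15:85707325-85707346) lie on the plus strand within the span of Lncppara. let-7f-5p of Mirlet7f-2 (chrX:151912353-151912374) and miR-98-5p (chrX:151913229-151913250) lie on the plus strand within the span of Huwe1. let-7c-5p of Mirlet7c-1 (chr16:77599672-77599693, plus strand) has Mir99a as its neighbour. let-7e-5p (chr17:17830366-17830387, plus strand) lies within the span of Spaca6, beside Mir99b and Mir125a. let-7g-5p (chr9:106178846-106178867, plus strand) lies within the span of Wdr82 and let-7i-5p (chr10:122985698-122985719, minus strand) within no other annotated gene, and neither has another miRNA gene within 20 kb. A second let-7a gene, Mirlet7a-2 on chromosome 9, neighbours Mir100.

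Each member had 2 probes of 18 to 22 bases, and each probe matched its own member without a mismatch and reached its last base. Both let-7a probes had 1 mismatch to let-7c, let-7d, let-7e and let-7f. Probes for let-7b, let-7c, let-7d, let-7e and let-7f likewise had 1 mismatch to their nearest member. For let-7g, let-7i and miR-98 the nearest other member had 2 mismatches. The longest probes of 2 pairs are shown: let-7g and let-7i, which differed most in what follows, and let-7a and let-7e. The latter differed most among pairs that differ by 1 base. Probes are written 5′ to 3′ as DNA, with capitals at the bases opposite a difference between the 2 members of the pair.
let-7e-5p probe, against let-7a-5p: aactatacaacctCctacc
let-7a-5p probe, against let-7e-5p: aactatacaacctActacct
let-7g-5p probe, against let-7i-5p: aacTgTacaaactactacctc
let-7i-5p probe, against let-7g-5p: aacAgCacaaactactacctc

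Signal from a member on a near-identical member's probe was not tested, since the arrays hold no sample with a single member. Signal also depends on the probe, so levels are compared between groups within a member and not between members.

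All 9 guide strands were detected on all 8 arrays. Of the 1881 miRNAs, 393 to 447 were detected on an IRI array and 327 to 379 on a sham array. Signals were divided by each array's 75th percentile over 317 miRNAs detected on all 8 arrays, which was 445 to 562 on IRI arrays and 356 to 456 on sham arrays. All IRI arrays lay in slide row 2 and all sham arrays in slide row 1, so row and group cannot be told apart. Spots of a member's probe on an array, 12 to 15 of them, varied by a median of 3.74% (coefficient of variation, range 1.11% to 8.77%).

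All 9 guide strands were lower in IRI than in sham kidney (limma, Benjamini-Hochberg over 379 tested miRNAs), and for each of them every IRI array lay below every sham array. Among the 379, 36.7% were called lower and 12.1% higher, and 35.9% had all IRI arrays below all sham arrays. The median log2 change of the guide strands was -0.43 (range -0.58 to -0.18), beside -0.11 over all tested miRNAs. The share was higher among brighter miRNAs: of the 102 tested miRNAs with a mean log2 signal at or above that of miR-98-5p, 68.6% were called lower and the median change was -0.39. The direction of 2 members turned with the scaling: let-7e-5p and let-7i-5p were lower with the percentile scaling and higher, without passing the test, when arrays were left unscaled or scaled to spike-in RNAs.

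**Figure D1:**
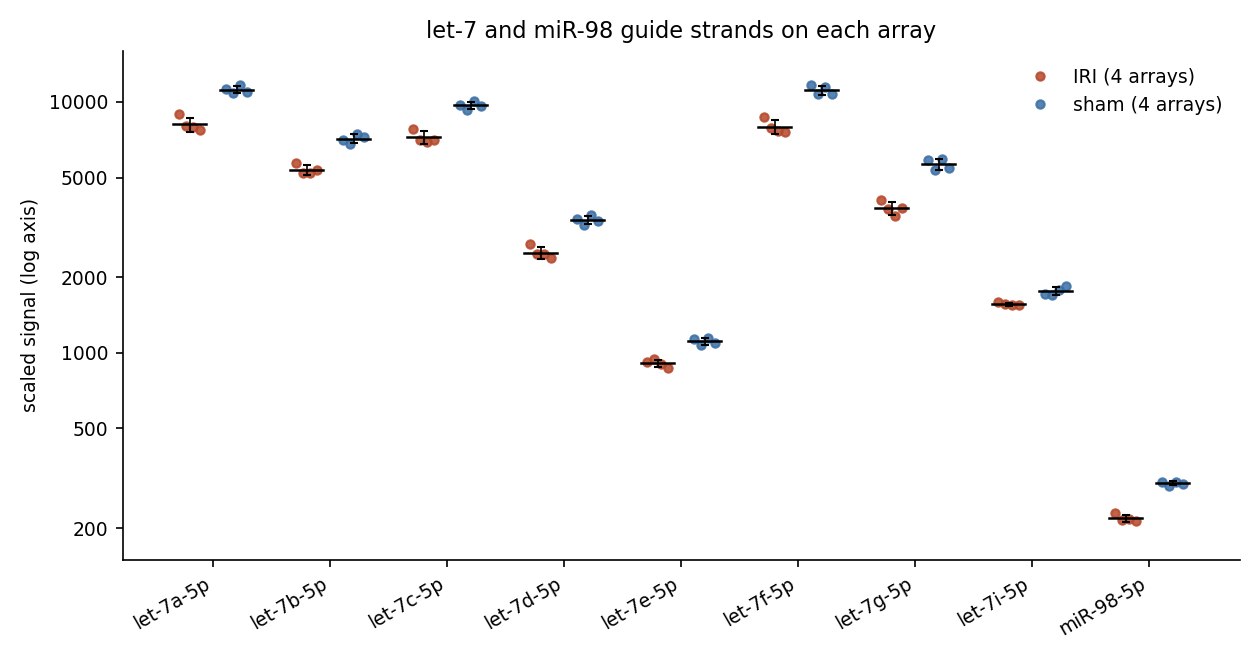
Scaled signal (log axis, no unit) of each guide strand on the 4 IRI arrays (left of each pair) and the 4 sham arrays (right), with the mean and SD in black. With this scaling every IRI array lies below every sham array for all 9 members; for let-7e-5p and let-7i-5p the direction turned without scaling.

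let-7a-5p, made from genes on chromosomes 13 and 9, had scaled signals of 8918, 8003, 7913 and 7708 on IRI arrays 1, 2, 3 and 18, against 11312, 10816, 11647 and 11002 on sham arrays 1, 2, 3 and 6. The groups did not overlap, and the highest IRI array was replicate 1. Its log2 change was -0.46 ± 0.06 (SE, limma, adjusted p = 0.00121). let-7f-5p, which shares the chromosome 13 cluster, had 8725, 7889, 7636 and 7573 on the IRI arrays, against 11664, 10716, 11446 and 10722 on the sham arrays. It too fell without overlap, by 0.49 ± 0.07 on the log2 scale (limma, adjusted p = 0.00121). let-7d-5p, the remaining product of that cluster, averaged 2513 ± 140 in IRI and 3390 ± 131 in sham (SD, n = 4 each), a log2 change of -0.43 ± 0.06 that was lost with quantile normalization (-0.10, adjusted p = 0.168). The ratio of let-7d-5p to let-7f-5p, the 2 products of this cluster whose log2 changes lay farthest apart, changed by 0.05 on the log2 scale (95% interval from limma -0.0098 to 0.12).

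let-7b-5p and let-7c-5p share the chromosome 15 cluster. let-7b-5p averaged 5376 ± 243 in IRI and 7146 ± 286 in sham, a log2 change of -0.41 ± 0.06. let-7c-5p, which also comes from chromosome 16, averaged 7226 ± 402 in IRI and 9699 ± 311 in sham, a log2 change of -0.43 ± 0.06. Both passed the test (limma, adjusted p = 0.00122), and neither had an IRI array that reached the lowest sham array. With quantile normalization neither call held: let-7b-5p was at -0.06 (adjusted p = 0.469) and let-7c-5p at -0.16 (adjusted p = 0.0608).

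miR-98-5p, the member with the G11A and A19U differences, had 230, 216, 218 and 213 on the IRI arrays, against 307, 295, 307 and 300 on the sham arrays. Both groups were tight, and the gap between them was wider than either group's range. The log2 change was -0.47 ± 0.05 (limma, adjusted p = 0.000749).

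let-7g-5p had the largest fall of the 9 with the percentile scaling, but not with quantile normalization, where it was at -0.15 (adjusted p = 0.0292) and miR-98-5p at -0.47. Its scaled signals were 4081, 3735, 3524 and 3770 on the IRI arrays, against 5882, 5342, 5936 and 5454 on the sham arrays. The highest IRI array lay well below the lowest sham array, and the log2 change was -0.58 ± 0.07 (limma, adjusted p = 0.000749). let-7e-5p had 923, 945, 905 and 873 on the IRI arrays, against 1132, 1072, 1150 and 1097 on the sham arrays. The groups were separate by a smaller margin, with a log2 change of -0.29 ± 0.05 (limma, adjusted p = 0.00378).

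let-7i-5p had the smallest change. It gave 1591, 1561, 1549 and 1546 on the IRI arrays, against 1720, 1707, 1790 and 1852 on the sham arrays. The IRI arrays were nearly equal and lay just below the lowest sham array, with a log2 change of -0.18 ± 0.05 (limma, adjusted p = 0.0233). The call was lost without sham replicate 3 (log2 change -0.17, adjusted p = 0.0636) and without sham replicate 6 (-0.15, adjusted p = 0.0755), among other settings.

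Summed over the 9 members, scaled signal was 37675 ± 2065 in IRI and 51402 ± 1789 in sham (SD, n = 4 each), with no overlap. As a share of the summed signal of all miRNAs on an array, the family held 8.02%, 7.65%, 7.22% and 6.72% on IRI arrays 1, 2, 3 and 18, against 8.03%, 8.41%, 7.78% and 7.82% on sham arrays 1, 2, 3 and 6. By this share the groups overlapped, since IRI replicate 1 lay within the sham range. Much of the summed signal of all miRNAs came from miR-6366 and miR-3963, so the share leans on these entries. Their mean scaled signals were 147290 and 128380 in IRI, and 214480 and 153840 in sham. In bulk kidney RNA, fewer cells of a type and less RNA per cell cannot be told apart.

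The size of the fall rested on the scaling between arrays. Before scaling, the summed signal of the 9 was 48346, 46576, 37470 and 36206 on IRI arrays 1, 2, 3 and 18, against 53178, 48434, 44120 and 40265 on sham arrays 1, 2, 3 and 6, and the groups overlapped for every member. Without scaling 0 of 9 passed the test (limma; 0 also at an unadjusted p under 0.05; 0.264% of all tested miRNAs were called lower), with let-7g-5p at -0.28 ± 0.14, let-7e-5p at 0.015 ± 0.14 and let-7i-5p at 0.13 ± 0.12 on the log2 scale. Scaling to labelling spike-in RNAs likewise gave 0 of 9 (also 0 at an unadjusted p under 0.05), with let-7g-5p at -0.26 ± 0.13 and let-7i-5p at 0.15 ± 0.12. In both cases the other 7 members kept a negative change.

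**Figure D2:**
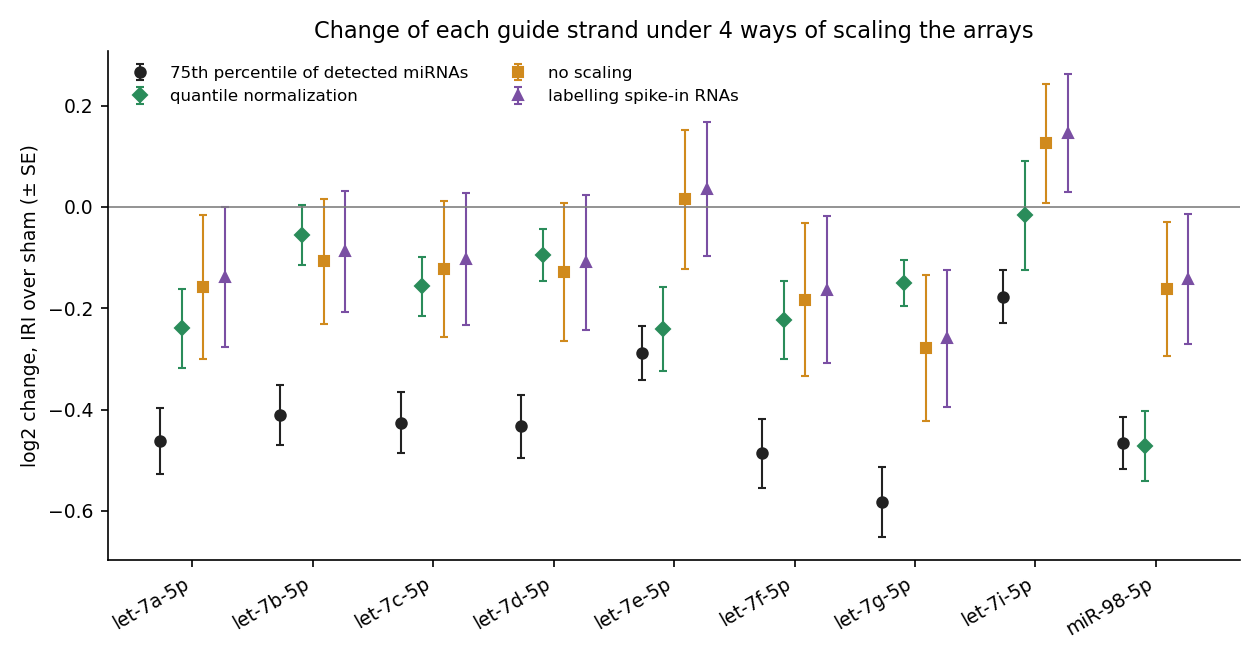
Log2 change of each guide strand, IRI over sham, with its standard error, under the percentile scaling of the main comparison, quantile normalization, no scaling and scaling to labelling spike-in RNAs. All 9 lie below 0 with the percentile scaling; let-7e-5p and let-7i-5p lie above 0 without scaling and with the spike-in RNAs.

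The scaling also moved the other miRNAs. The median change of all tested miRNAs was -0.11 with the percentile scaling, 0.17 without scaling and 0.19 with the spike-in RNAs, and the calls over all miRNAs changed from 46 higher and 139 lower to 53 higher and 1 lower without scaling and 72 higher and 2 lower (0.528% of those tested) with the spike-in RNAs. The median guide strand minus that median was -0.32 with the percentile scaling and -0.30 without scaling and with the spike-in RNAs; these scalings shift all miRNAs of an array alike, so apart from the floor the difference could not vary among them. With normexp background correction it was -0.19 and with quantile normalization -0.06.

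Ratios between members on the same array do not depend on a common scaling factor. Each guide strand was therefore expressed as its log2 signal minus the mean log2 signal of the other 8 on that array, a quantity whose change between groups can be read but whose level cannot. By construction the values of the 9 members cancel out on each array, so a relative rise of some members lowers the others. Relative to the rest of the family, let-7i-5p and let-7e-5p were higher in IRI and let-7g-5p was lower, each with no overlap between groups, but none of the 9 passed the exact test after adjustment.

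let-7i-5p minus the other 8 was -0.95, -0.87, -0.85 and -0.85 on IRI arrays 1, 2, 3 and 18, against -1.21, -1.14, -1.18 and -1.06 on sham arrays 1, 2, 3 and 6. let-7e-5p gave -1.84, -1.69, -1.73 and -1.78 on the IRI arrays, against -1.89, -1.90, -1.90 and -1.91 on the sham arrays. let-7g-5p gave 0.57, 0.55, 0.48 and 0.59 on the IRI arrays, against 0.78, 0.71, 0.76 and 0.69 on the sham arrays. The IRI arrays stood entirely above sham for let-7i-5p and let-7e-5p and entirely below for let-7g-5p.

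The differences between groups were 0.27 for let-7i-5p, 0.14 for let-7e-5p and -0.19 for let-7g-5p on the log2 scale (exact permutation test over arrays, two-sided, p = 0.0286 each, the smallest p that 70 splits allow; 0.0857 adjusted over the 9 members). let-7a-5p, let-7f-5p and miR-98-5p had differences of -0.05, -0.08 and -0.06 with overlapping groups (exact permutation p = 0.0571 each). let-7b-5p, let-7c-5p and let-7d-5p moved with the family mean: their differences were 0.0041, -0.013 and -0.020, with 95% intervals from limma of -0.04 to 0.05, -0.05 to 0.03 and -0.06 to 0.02. With limma on these ratios in place of the exact test, 6 of the 9 passed: let-7i-5p (0.27 ± 0.03, adjusted p = 4.47e-06), let-7g-5p, let-7e-5p, let-7f-5p, miR-98-5p and let-7a-5p. Here limma pools the spread over 9 ratios built from the same members, so its p-values may be too small and its intervals too narrow. These passes are not separate results, since a relative rise of let-7i-5p and let-7e-5p lowers the others.

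**Figure D3:**
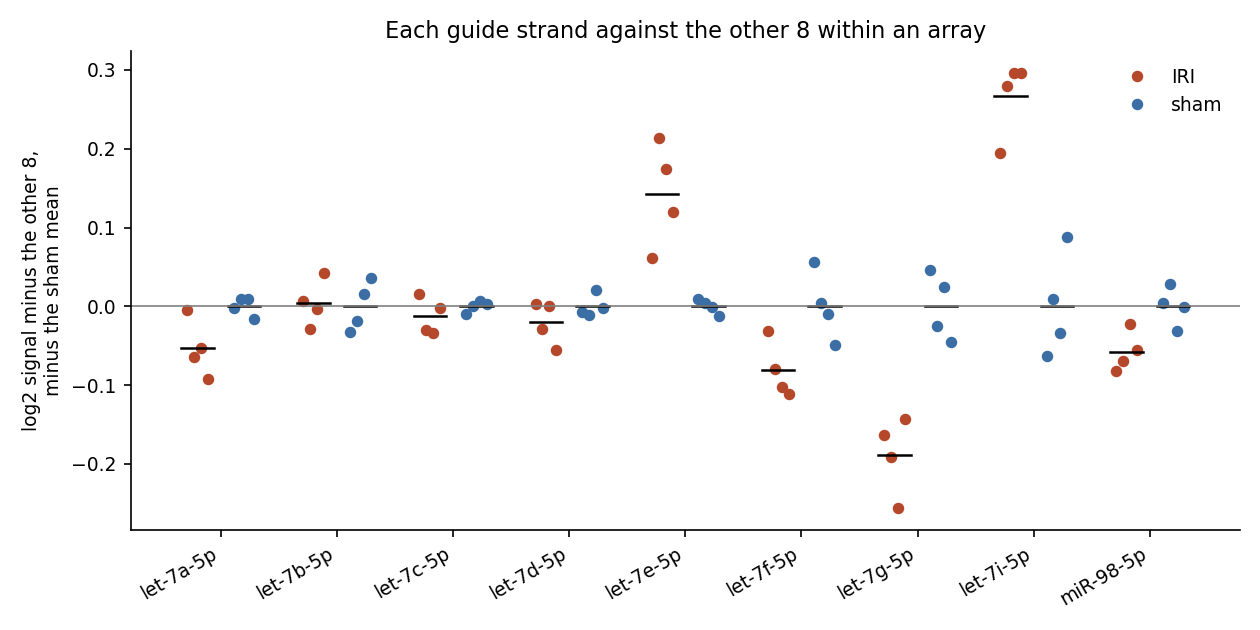
Log2 signal of each guide strand minus the mean of the other 8 on the same array, with the sham mean set to 0, for the IRI arrays (left) and the sham arrays (right); bars are group means. The IRI arrays lie above sham for let-7e-5p and let-7i-5p and below sham for let-7g-5p; under quantile normalization the group differences of let-7e-5p (-0.065) and let-7g-5p (0.037) had the opposite sign.

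All 36 pairs of members were compared in the same way, by the log2 ratio within an array. In 20 pairs the groups did not overlap, and each of these had the smallest exact p (0.0286; 0.0514 adjusted over 36 pairs), so 0 of 36 passed the exact test. With limma on the ratios 21 passed. That fit pools the spread over 36 pairs that share members, so its p-values may be too small and its intervals too narrow. All 20 pairs without overlap included let-7e-5p, let-7g-5p or let-7i-5p, a grouping chosen after the values were seen; the size of the difference was 0.10 to 0.40 in the 21 pairs that include 1 or more of them and 0.0035 to 0.076 in the 15 pairs among the other 6.

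The largest difference was between let-7g-5p and let-7i-5p, which differ at A17G and A19U (let-7g base first). Their log2 ratio was 1.27 ± 0.07 in IRI and 1.68 ± 0.10 in sham (SD, n = 4 each), a difference of -0.40 (95% interval from limma -0.50 to -0.31). Members that differ by 1 base were compared as well, since their probes are among the hardest to separate. let-7a-5p and let-7d-5p differ at U1A and U16C, but no probe of either reaches position 1, so their probes also have 1 mismatch. The log2 ratio of let-7a-5p over let-7d-5p changed by -0.030 (95% interval from limma -0.087 to 0.028). let-7a-5p over let-7e-5p, which differ at U9G, changed by -0.17 (-0.25 to -0.10) without overlap: the log2 ratio was 3.16 ± 0.08 in IRI and 3.33 ± 0.0088 in sham. The other pairs that differ by 1 base changed by less: let-7a-5p over let-7c-5p by -0.036 (-0.10 to 0.02), let-7a-5p over let-7f-5p by 0.024 (-0.04 to 0.08) and let-7b-5p over let-7c-5p by 0.015 (-0.04 to 0.07). These intervals leave room for differences in either direction of up to 0.10 on the log2 scale.

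**Figure D4:**
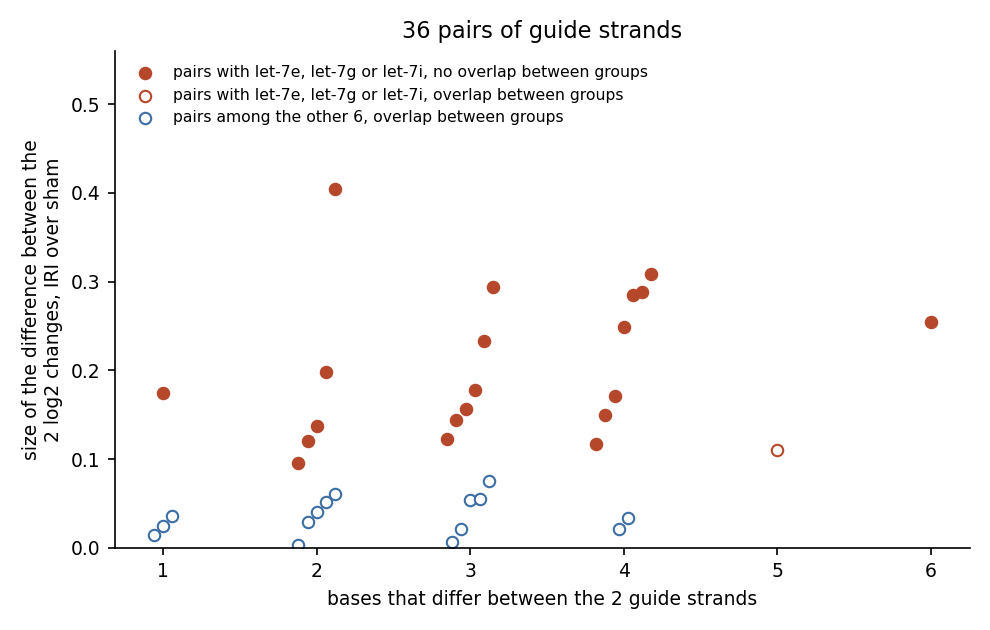
Size of the difference between the log2 changes (IRI over sham) of the 2 members of each of 36 pairs, against the number of bases by which they differ. Filled points mark pairs whose log2 ratios did not overlap between IRI and sham arrays; all of these include let-7e-5p, let-7g-5p or let-7i-5p, with 0.17 for let-7a-5p and let-7e-5p (1 base) and 0.40 for let-7g-5p and let-7i-5p (2 bases).

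Set against the number of differing bases, the median size of the difference was 0.030 over 4 pairs with 1 differing base, 0.078 over 10 pairs with 2, 0.12 over 11 pairs with 3 and 0.17 over 9 pairs with 4, while the 1 pair with 5 had 0.11 and the 1 pair with 6 had 0.25; pairs share members. The sizes spanned 0.0035 to 0.40 with 2 differing bases, 0.0067 to 0.29 with 3 and 0.022 to 0.31 with 4, so these classes overlapped widely. Within groups, the arrays' deviations correlated between members with a median r of 0.79 over 36 pairs and 8 arrays (0.13 for let-7f-5p and let-7i-5p, 0.98 for let-7a-5p and let-7d-5p), a description that includes what array scaling gives all members in common.

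The 2 probes of each member moved together. The shorter probe lies wholly within the longer one, so their agreement is no independent support. With the percentile scaling all 18 probes were lower in IRI (limma over 539 tested probes, of which 43.6% were called lower), and both probes of let-7i-5p and of let-7g-5p gave alike changes: -0.16 and -0.19 for let-7i-5p, and -0.60 and -0.57 for let-7g-5p. Without scaling 0 of the 18 passed (0.371% of all tested probes were called lower), and at an unadjusted p under 0.05 likewise 0.

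A scan of all array probes, made with the values known, looked for entries outside the family that come close to a member. It placed each probe wholly within a member, without gaps, and left out the shortest probes, so a probe that overhangs a member's end could be missed. It found 1 mismatch to a member for let-7k and miR-3962, both dim. RefSeq gives both, shown with the base that differs from the nearest member in capitals; let-7k carries the shared seed and differs from let-7b at U9G, and miR-3962 starts at position 3 of let-7g and differs from it at G20U.
let-7k: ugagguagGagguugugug
miR-3962: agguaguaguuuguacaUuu

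let-7k was detected on 4 IRI arrays and on 0 sham arrays, but its scaled signal lay below the floor of 17.3 on all 8, so no change could be measured. miR-3962 had scaled signals of 15.0, 13.3, 13.5 and 12.2 on IRI arrays 1, 2, 3 and 18, all below that floor, against 20.4, 20.5, 23.8 and 18.5 on sham arrays 1, 2, 3 and 6. It was called lower (limma, adjusted p = 0.0274), with no measured size since IRI lay at the floor. Its part in the let-7g-5p signal, or the reverse, was not tested. miR-1961, which also carries the seed, and let-7j, which does not, were detected on 0 arrays. Apart from the seed let-7j is close to let-7i in sequence, but it is 24 bases long, so the scan could miss its probes. Among probes with 2 mismatches 1 was bright: the 12-base probe of miR-709, matched against let-7e, had unscaled signals of 746 to 1120 on IRI arrays and 625 to 790 on sham arrays. miR-709 had a log2 change of 0.16 and did not pass (limma, adjusted p = 0.46), and signal shared between it and let-7e-5p was not tested.

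Relatives of the guide strands were followed in a list of their passenger arms, other let-7-named or seed-sharing entries, and the products of neighbouring miR-99, miR-100 and miR-125 genes. Of 26 entries 25 were on the array and 10 were tested: 4 were lower, 0 were higher and 6 did not pass, with a median log2 change of -0.15 (all tested -0.11). The share of 4 in 10 lay near the 36.7% called lower over all tested miRNAs, and 1 relative was called with all miRNAs tested and 0 without scaling or with the spike-in RNAs. Of 11 passenger arms on the array, 8 were detected on 0 arrays, so the guide strand was the arm seen for most members.

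Among the passenger arms, let-7a-1-3p had scaled signals of 19.6, 22.6, 24.9 and 21.6 on the IRI arrays, against 25.6, 25.1, 27.8 and 28.8 on the sham arrays. It was lower by a narrow margin close to the floor, with a log2 change of -0.28 ± 0.09 (limma, adjusted p = 0.0315), and its direction turned without scaling (0.026) and with the spike-in RNAs (0.045). let-7b-3p had a log2 change of -0.21 ± 0.10 (adjusted p = 0.117) and let-7f-1-3p of -0.06 ± 0.10 (adjusted p = 0.586), neither past the limma test, and both turned positive without scaling.

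The neighbours' changes differed in size, and the differences between them were not tested. miR-99a-5p, the neighbour of let-7c-1, had 543, 482, 448 and 448 on the IRI arrays, against 676, 629, 678 and 679 on the sham arrays, a log2 change of -0.47 ± 0.08 (limma, adjusted p = 0.00197), near that of let-7c-5p. miR-100-5p, the neighbour of let-7a-2, averaged 135 ± 17.7 in IRI and 176 ± 7.15 in sham, a log2 change of -0.39 ± 0.10 (adjusted p = 0.0132). In contrast, the neighbours of let-7e changed by -0.14 ± 0.06 for miR-99b-5p (adjusted p = 0.0749) and -0.16 ± 0.06 for miR-125a-5p (adjusted p = 0.0479), beside -0.29 for let-7e-5p itself; both turned positive without scaling and with the spike-in RNAs. Of 22 alternatives, 3 kept the call of miR-125a-5p, 17 lost it with the same direction and those 2 turned it. miR-125b-5p had -0.12 ± 0.06 (adjusted p = 0.14) and also turned positive there. miR-125a-3p, from the same hairpin as miR-125a-5p, had 0.66 ± 0.25 and did not pass (adjusted p = 0.0562), but it passed as higher in 10 of 22 alternatives (smallest adjusted p = 0.0275).

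**Figure D5:**
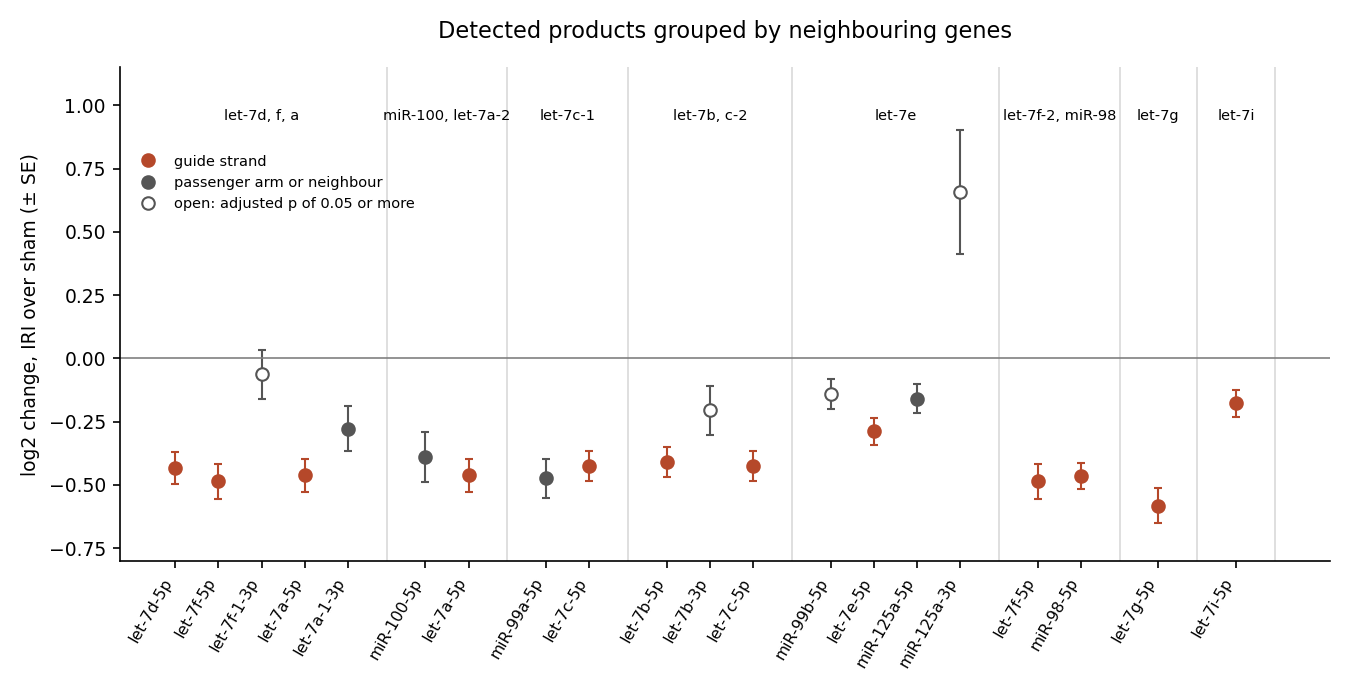
Log2 change, IRI over sham with the percentile scaling, with its standard error, of detected guide strands, passenger arms and neighbours, placed by the genes that lie within 20 kb of each other; a guide strand made from 2 genes appears in both places. Products beside let-7e lie nearer to 0 than miR-99a-5p beside let-7c-1, apart from miR-125a-3p at 0.66. miR-125b-5p (-0.12), with no let-7 gene within 20 kb, is not shown. Without scaling let-7e-5p, let-7i-5p, miR-99b-5p and miR-125a-5p lay above 0.

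Outside the family, the 3 miRNAs whose profile over the 8 arrays lay closest to the mean profile of the 9 guide strands were miR-345-5p, miR-140-5p and miR-378a-5p. Their root mean square distances were 0.025, 0.030 and 0.030 on the log2 scale, and their log2 changes were -0.40, -0.43 and -0.43 (limma, adjusted p = 0.00193, 0.00168 and 0.00155). The mean profile itself holds the difference between groups, so alike changes with small p-values were set by the choice and are no separate result. Within the family, only let-7c-5p, let-7d-5p and let-7b-5p lay closer to the family's own mean than these 3 (0.014, 0.019 and 0.023). Farther from it were let-7a-5p and miR-98-5p (both 0.032), let-7f-5p (0.047), let-7e-5p (0.073), let-7g-5p (0.091) and let-7i-5p (0.13).

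Markers of some cell types differed between the groups. Of 10 kidney tubule miRNAs 9 were tested and all 9 were lower in IRI, with a median log2 change of -0.45. Beside this, 36.7% were called lower over all tested miRNAs and 68.6%, with a median of -0.39, among the 102 brighter ones. miR-192-5p was at -0.69 and miR-194-5p at -0.71, while miR-215-5p was detected on 0 arrays. The summed scaled signal of the 10 was 20497 to 23478 on IRI arrays and 27978 to 31854 on sham arrays. Of 4 red blood cell miRNAs 3 were tested and all 3 were higher, beside 12.1% over all tested miRNAs. The entry detected on all 8 arrays, miR-451a, was at 3.53. Both miR-144-3p (detected on 4 IRI and 2 sham arrays) and miR-486a-5p (4 IRI and 0 sham arrays) were tested only through their detection in IRI. The count was thus partly set by the filter. The summed signal of the 4 was 2948 to 4100 on IRI arrays and 43.0 to 904 on sham arrays. Of 6 leukocyte miRNAs 1 was higher, miR-223-3p at 1.53, beside 12.1% called higher over all tested miRNAs. The other 5 did not pass: miR-142a-3p was at 0.29, miR-142a-5p at 0.19, miR-155-5p at 0.07, miR-342-3p at -0.14 and miR-150-5p at -0.57. The summed signal of the 6 was 814 to 1173 on IRI arrays and 622 to 782 on sham arrays. Within it, miR-223-3p averaged 370 in IRI and 127 in sham. The part of these markers in the let-7 values was not tested. Both endothelial entries were lower, with log2 changes of -0.32 for miR-126a-3p and -0.37 for miR-126a-5p, and their summed signal was 3836 to 4321 on IRI arrays and 4623 to 5333 on sham arrays. Of the muscle list miR-1a-3p was detected on all 8 arrays and called lower close to the floor (-0.54, limma, adjusted p = 0.00477), while miR-133a-3p and miR-206-3p were detected on 0. Of the brain list miR-9-5p was detected on all 8 arrays and did not pass (0.13, adjusted p = 0.482), while miR-124-3p was detected on 0. The liver entry, miR-122-5p, passed detection on a single IRI array and on no sham array.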

How the data were processed

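Total RNA from 30 mg of mouse kidney was labelled with Cy3, 100 ng per sample, and hybridised to Agilent miRNA arrays, per the labels' protocols. Spot brightness in the deposited scanner files is a linear intensity, background-subtracted by Agilent Feature Extraction 12.0.3.1 and not normalized between arrays, per the file headers. Groups and replicate numbers came from the sample labels.

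Spots marked as outliers (1422 to 1560 of 56430 per array) were left out and 0 were saturated. For each probe the mean processed signal of its remaining spots was taken, and probe means were summed per miRNA, divided by a 75th percentile taken per array over the 317 miRNAs that all 8 arrays detected, multiplied by the percentiles' geometric mean, bounded below at 17.3 (a floor set at the 5th percentile of detected scaled signals) and taken to log2. A miRNA was tested if every array of either group detected it, which left 379 for limma 3.58.1 in R 4.3.3 (two-sided, Benjamini-Hochberg, threshold 0.05, no covariate), after a test on simulated data. Ratios within arrays were compared by exact permutation over 70 splits. They were also fitted with limma, which pooled the spread over ratios built from the same members. The intervals from that fit may be too narrow and its p-values too small. Precision is limited by 4 arrays per group.

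The deposited value table gives each miRNA as a linear ratio; the authors' scaling and centring are not given in the sources used. Its differences between arrays followed the scanner gene totals in the same direction, while its scaling rule and exact centre are unknown. Column medians were 0.658, 0.646, 1.16 and 0.749 for IRI 1, 2, 3 and 18 and 0.859, 1.23, 1.29 and 1.30 for sham 1, 2, 3 and 6. It served as an alternative only.

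The members, the lists and the rule for the named miRNAs (all 9 members, all tested relatives, the defining markers and the 3 closest profiles) were chosen with earlier results of these data known. The alternatives changed background correction, scaling, how probes were summed, filters, floor, blocks and the variance model, and left out single arrays. Coordinates are those of RefSeq on GRCm38.p6; the array files name mm9, and no coordinate of the files was used.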

Additional observations from a re-analysis of the deposited data

Results flagged for a closer look

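One result stood apart among 54 groups of 4 arrays examined for a sample far from the others. miR-99a-5p on sham replicate 2 had a log2 scaled signal of 9.30, while the other 3 sham arrays lay between 9.40 and 9.41. The gap to the nearest array was 0.952 of the whole sham range. The limit used for such gaps is passed by chance in about 1 in 20 groups, and here 1 group of 54 passed it, no more than chance gives. All sham arrays lay above the IRI arrays for this miRNA. None of the 9 guide strands had such an array in either group.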

How the results depend on the processing

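The number of guide strands called lower was 9 and stayed at 8 or 9 under 19 of 22 alternatives; it was 5 with quantile normalization and 0 both without scaling and with spike-in scaling. It was 8 to 9 when each array was left out. The 18 probes called lower became 0 without scaling, and 16 to 18 on leaving out each array. let-7i-5p was the call most often lost: it did not pass with the percentile over all miRNAs (adjusted p = 0.0966), normexp (0.0524), Feature Extraction totals (0.0664) or slide column as a block (0.0777). The 4 relatives called lower became 0 without scaling and with spike-in scaling, 2 with the percentile over all miRNAs, quantile normalization or Feature Extraction totals, 1 with all miRNAs tested, and 2 to 4 on leaving out each array. let-7a-1-3p lost its call in 12 alternatives with the same direction. Pairs that changed unequally were 0 in the exact test, 21 with limma on the ratios and 0 to 21 on leaving out each array, where 21 came without IRI replicate 1; members that changed unequally to the other 8 were 0, and 6 with limma. For pairs the smallest adjusted p of the exact test was 0.0514, above the threshold. This value was set by how many pairs, which share members, tied at the smallest p.

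Directions turned as follows (log2 change). Without scaling and with spike-in scaling, let-7e-5p was at 0.015 and 0.035, let-7i-5p at 0.13 and 0.15, let-7a-1-3p at 0.026 and 0.045, let-7b-3p at 0.098 and 0.12, let-7f-1-3p at 0.24 and 0.26, miR-99b-5p at 0.16 and 0.18, miR-125a-5p at 0.14 and 0.16, and miR-125b-5p at 0.18 and 0.20. With Feature Extraction totals and the deposited value table, let-7b-3p was at 0.14 and 1.09 and let-7f-1-3p at 0.80 and 1.74; on leaving out each array let-7f-1-3p ran from -0.10 to 0.0089, positive only without sham replicate 3. With quantile normalization, which changes ratios within an array by its construction, miR-125b-5p was at 0.17, let-7e-5p minus the other 8 at -0.065, let-7g-5p minus the other 8 at 0.037, the let-7a-5p to let-7e-5p ratio at 0.0010 and the let-7e-5p to let-7g-5p ratio at -0.090. The cause of the other turns was not tested.

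Replicate numbers 1, 2 and 3 occur in both groups, and same-numbered arrays also shared a slide column. Their deviations correlated with r = -0.16, -0.20 and 0.24. IRI 18 and sham 6, both in column 4, had 0.50, and IRI 2 and sham 1, in different columns, had 0.41. So few arrays cannot show or exclude pairing, and the main comparison used no pairs. With the replicate block on the 6 arrays numbered 1, 2 and 3, 8 guide strands were called lower (let-7i-5p at -0.15, limma, adjusted p = 0.108), 16 probes and 1 relative. The sign-flip test of 3 pairs called 0 pairs and 0 members and cannot pass the threshold. Passenger arms lay near the floor, which limits what their values can show.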
